A study of Mus musculus with 617 samples.

Results

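The genes described here are 8 regulators and markers of the primitive endoderm. They were chosen by name, and their rows were taken by Ensembl mouse gene identifier from each of 4 deposited tables, which hold 43628 genes each. Gata6 (ENSMUSG00000005836, chr18:11052064-11085635), Gata4 (ENSMUSG00000021944, chr14:63198922-63271692), Sox17 (ENSMUSG00000025902, chr1:4490931-4497354), Sox7 (ENSMUSG00000063060, chr14:63943673-63950732) and Hnf4a (ENSMUSG00000017950, chr2:163506808-163572910) encode transcription factors. Pdgfra (ENSMUSG00000029231, chr5:75152292-75198215) encodes a receptor of platelet-derived growth factors. Dab2 (ENSMUSG00000022150, chr15:6299788-6440712) encodes an endocytic adaptor, and Sparc (ENSMUSG00000018593, chr11:55394500-55423183) a secreted protein of basement membranes. All are protein-coding, and the positions are those of GENCODE on GRCm38, the assembly also called mm10.

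The primitive endoderm is the extraembryonic layer that separates from the epiblast within the inner cell mass of the blastocyst. FGF4 from epiblast precursors acts through FGF receptors and ERK to favour Gata6, and Nanog opposes it. Gata6 is on early in the inner cell mass, Sox17 and Gata4 follow, and Sox7 comes late. The layer then gives the visceral endoderm, which is absorptive and needs Hnf4a and Dab2, and the parietal endoderm, which secretes a thick basement membrane rich in laminin, collagen IV and Sparc. Several members also work elsewhere: Gata4, Gata6 and Sox17 in definitive endoderm, Sox7 and Sox17 in endothelium, Pdgfra in mesoderm and mesenchyme.

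RNA of 617 single mouse cells in 13 groups was measured by SMART-seq2, a full-length method, with Tn5 tagmentation. Embryonic stem (ES) cells of 1 female and 1 male line, both from a cross of CAST/EiJ fathers with C57BL/6J mothers, were each sampled in 4 states. These were 2i with LIF (60 female and 51 male cells), serum with LIF (68 and 52), epiblast stem cells derived from the same lines with Activin A and FGF2 and labelled Epi (79 and 63), and cells taken through embryoid bodies with retinoic acid and the smoothened agonist SAG and labelled motor neuron (39 and 35). By the labels this last procedure also yields interneurons. A further female Epi culture of 7 passages gave 41 cells. Embryos of the same cross gave 23 cells labelled E3.5 ICM (inner cell mass) and 23 labelled E4.5 epiblast, with no sex given, and C57BL/6J embryos gave 20 female and 63 male cells labelled E5.5 epiblast. Line and sex are the same factor in the cultures, with 1 culture per line and state, so the tests below measure the spread between the female and the male line.

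Values were FPKM, the fragments of a gene per length of transcript and size of library. The median cell had 8122 to 10840 genes at 1 FPKM or more, depending on the group, and this level counted as detection. Read totals are not in the tables, but low values rose in steps that give what a fragment was worth: for Sox7 the group medians ran from 0.0433 to 0.313 FPKM, so that 1 FPKM stood for several fragments in a typical cell. Intervals given for shares of cells are exact Clopper-Pearson intervals at 95%, and they cover counting error only. The labels of the embryonic cells did not match all of their markers. Gata3, a trophectoderm factor, reached 10 FPKM in 14 of 23 cells labelled E3.5 ICM and in 17 of 23 labelled E4.5 epiblast, and all 8 trophectoderm markers examined averaged at least 1 FPKM at both stages. At E5.5 all 8 visceral endoderm markers did so in both sexes.

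Promoter sequence was at hand for 4 of the 8 members in RefSeq (GRCm38.p6), as 6 windows from 250 bases before to 50 bases after an annotated start. Each was searched on both strands for the GATA-factor letters AGATAA and TGATAA and for the SOX-factor letters AACAAT and ACAAAG. The windows shown are the pair that hold a GATA match, set in capitals, since GATA factors are among the members. The Hnf4a window, chr2:163506607-163506906 on the plus strand, holds 1 match, whose first base lies at -52 from the start. The Dab2 window, chr15:6299539-6299838 on the plus strand, holds 2, at -179 and, as TTATCT on the other strand, at 15.
Hnf4a: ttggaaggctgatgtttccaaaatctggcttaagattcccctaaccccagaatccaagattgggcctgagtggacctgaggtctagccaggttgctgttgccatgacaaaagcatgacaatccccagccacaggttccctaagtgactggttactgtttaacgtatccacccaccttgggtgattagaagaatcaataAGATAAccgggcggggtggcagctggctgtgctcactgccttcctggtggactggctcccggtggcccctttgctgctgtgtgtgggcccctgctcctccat
Dab2: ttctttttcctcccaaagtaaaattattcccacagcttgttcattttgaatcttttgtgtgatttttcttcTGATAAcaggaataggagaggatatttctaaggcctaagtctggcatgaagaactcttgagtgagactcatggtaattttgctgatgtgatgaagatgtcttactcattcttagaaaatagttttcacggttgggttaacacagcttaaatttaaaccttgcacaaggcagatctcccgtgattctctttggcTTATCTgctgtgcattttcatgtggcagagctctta
The second windows of Hnf4a and Dab2 and the windows of Pdgfra and Sparc held no GATA match, and none of the 6 held a SOX match. Among 32841 such windows of all genes, 18.6% held a GATA match, 3.26% held 2 or more, and 27.04% held a SOX match. These matches describe the letters and say nothing of binding.

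**Figure D1:**
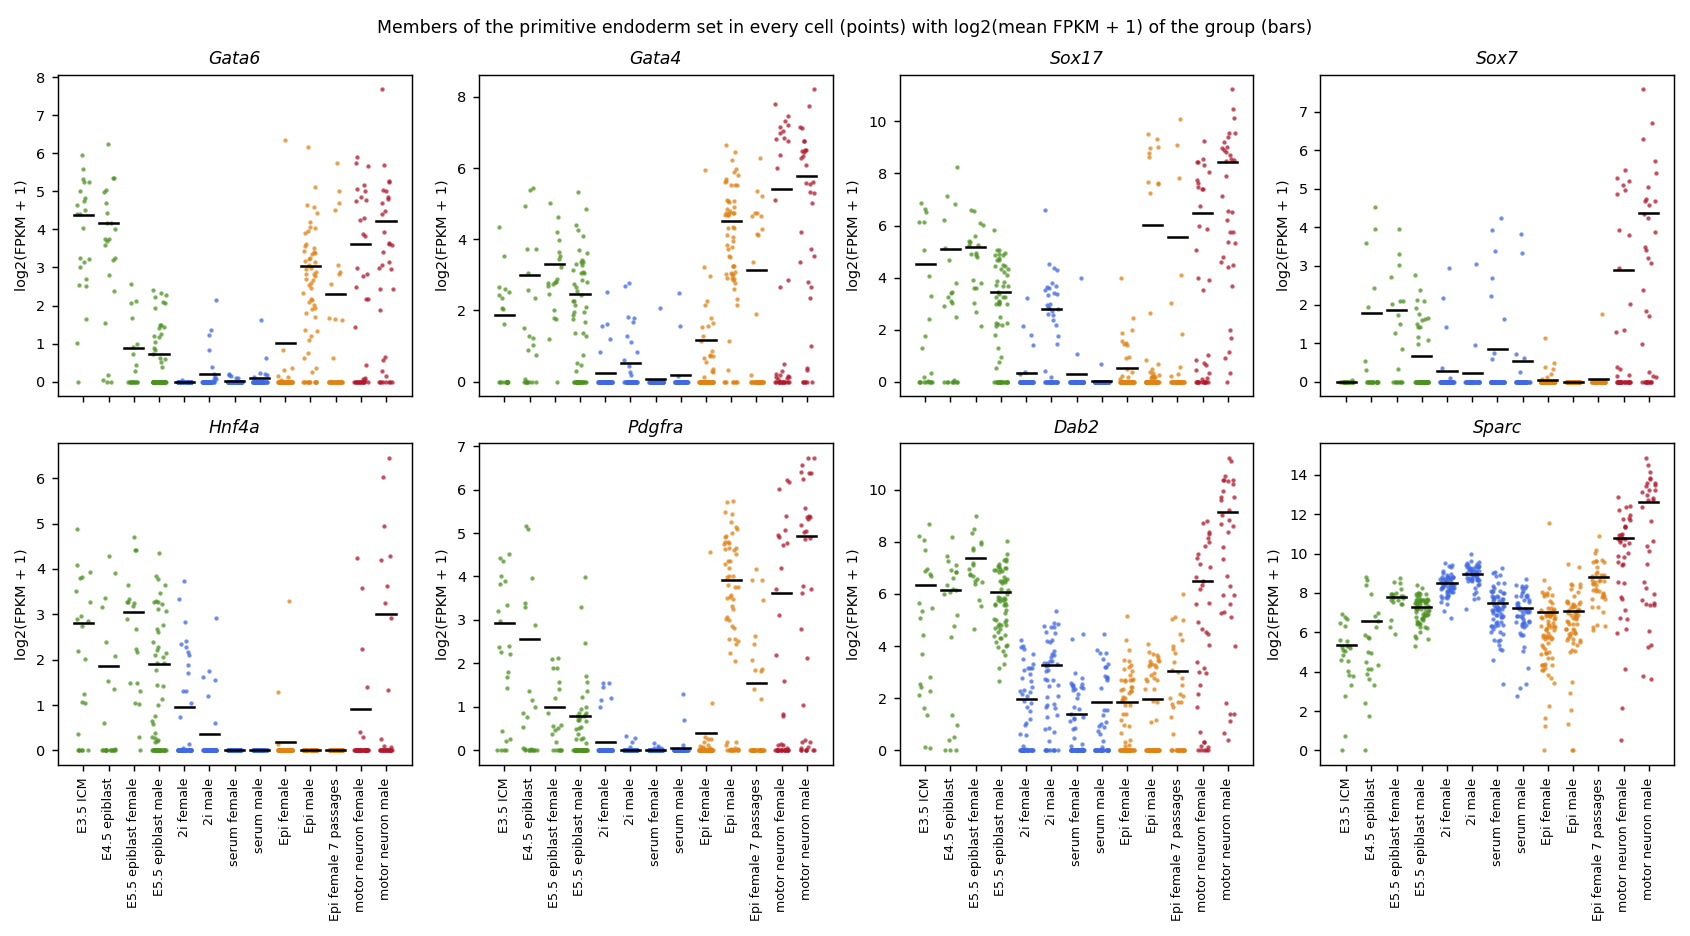
Each point is 1 cell, at log2(FPKM + 1) of the gene named above the panel, in the 13 groups along the horizontal axis; bars are log2 of the group's mean FPKM plus 1, and colours separate embryos (green), ES cells (blue), Epi (orange) and motor neuron cultures (red). Gata6, Gata4, Sox17 and Pdgfra reach high values in blastocysts, male Epi and motor neuron cultures and are near 0 in nearly all serum ES cells, whereas Sparc is detected in nearly every cell of each group.

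The members fell into 3 patterns over the 13 groups. Sparc was on everywhere, in 91.3% to 100% of cells. Dab2 was detected in all groups but was high only in embryos and motor neuron cultures. The transcription factors and Pdgfra were at or close to 0 in serum ES cells and much higher elsewhere, each in its own set of groups. In what follows a spread is the SD over the cells of a group, which are not replicates. Median FPKM sums per cell were 612768 at E3.5 and 511794 at E4.5. They were 1027090 and 995182 in female and male E5.5 cells, and from 793153 to 1478620 in the cultures. The means below were not rescaled for this, so their order between groups holds for the deposited FPKM only.

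Gata6, the earliest factor of the lineage, had its highest mean at E3.5, with 19.9 ± 16.4 FPKM (SD, 23 cells), followed by the male motor neuron culture (17.5 ± 35.4), E4.5 (16.9 ± 17.5), the female motor neuron culture (11.2 ± 16.5) and male Epi (7.28 ± 10.7). The gaps between these neighbours were smaller than the SD. At E5.5 it averaged 0.838 FPKM in female and 0.653 in male cells, and no E5.5 cell reached 10 FPKM. It was below 1 FPKM in every cell of the female 2i and female serum cultures (0 of 60 and 0 of 68, which allows up to 5.96% and 5.28%).

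Gata4, a GATA factor that acts after Gata6, was higher in the motor neuron cultures (41.7 ± 65.1 FPKM female, 54.3 ± 67.01 male) than in any embryonic group. Male Epi cells came next with 21.9 ± 22.2, then female E5.5 cells with 8.82 ± 7.85, the 7-passage Epi culture with 7.73 and E4.5 cells with 7.00 ± 12.8. At E3.5 it averaged 2.69 ± 4.54 and was detected in 43.5% of cells (23.2 to 65.5%), against 95.7% (78.1 to 99.9%) for Gata6. So most E3.5 cells carried Gata6 RNA, and fewer carried Gata4.

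Sox17, an endoderm and endothelial SOX factor, averaged 345.9 ± 500 FPKM in the male and 89.5 ± 145.4 in the female motor neuron culture. Male Epi (63.5 ± 167) and the 7-passage Epi culture (46.1 ± 191) came next in the mean, yet there it was detected in only 17.5% and 14.6% of cells. In embryos its mean stayed between 9.90 and 35.1, and it was detected in every one of the 20 female E5.5 cells. Male Epi cells ran from a median of 0 to a highest value of 740, and E4.5 cells from a median of 7.14 to 303.9.

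Sox7, the late SOX factor, was not detected at E3.5 (0 of 23 cells, up to 14.8%), where its highest value was 0.0216 FPKM. At E4.5 it was detected in 5 of 23 cells (21.7%, 7.46 to 43.7%) with a highest value of 21.96. It was at 0 in all 63 male Epi cells. Its highest means were 19.8 ± 37.8 and 6.44 ± 12.9 in the male and female motor neuron cultures.

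Hnf4a, a nuclear receptor of visceral endoderm and liver, followed another order. Female E5.5 cells had the highest mean, 7.33 ± 7.19 FPKM, followed by the male motor neuron culture (6.98 ± 18.5) and E3.5 cells (6.05 ± 7.14). It was listed at 0 in every cell of both serum cultures, of male Epi and of the 7-passage culture. Among 2i cells, 21.7% of the female (12.1 to 34.2%) and 9.80% of the male ones (3.26 to 21.4%) had it.

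Pdgfra averaged 29.6 ± 34.4 FPKM in the male motor neuron culture, 14.0 ± 13.9 in male Epi, 11.2 ± 20.5 in the female motor neuron culture and 6.59 ± 7.24 at E3.5. Dab2 averaged 558 ± 652 in the male motor neuron culture, 165 ± 122.5 and 66.5 ± 52.5 in female and male E5.5 cells, 89.5 ± 126 in the female motor neuron culture, 80.7 ± 112.8 at E3.5 and 71.02 ± 73.1 at E4.5. In the ES and first Epi cultures Dab2 averaged between 1.65 and 8.67. Sparc ran from 40.6 ± 34.9 at E3.5 to 6235 ± 7396 in the male motor neuron culture, and was the most abundant member per transcript length in every culture and in E5.5 cells.

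In cells labelled E3.5 ICM, several members were detected together in most cells, but their levels did not rise and fall as a set. At least 5 of the 8 members reached 1 FPKM in 15 of 23 cells (65.2%, 42.7 to 83.6%), and at 10 FPKM in 2 cells. Gata6 and Sox17 were detected together in 11 cells, Gata4 and Gata6 in 10, and all 7 cells with both Gata4 and Sox17 also had Gata6. No cell had Gata4 without Gata6. Since Gata6 was below 1 FPKM only in the cell where it stood at 0, nearly any gene would show such nesting, and it says nothing of an order.

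Across the 23 cells, Spearman's rho was 0.56 between Gata4 and Sox17, 0.51 between Gata4 and Sparc and 0.50 between Sox17 and Sparc. Over the 28 pairs of members the median rho was 0.03, and it ranged from -0.75 to 0.56. These correlations describe 23 cells, of which the labels do not say which share an embryo, and they carry no test. Gata6, the member detected most widely, had no rho above 0.27 with another member. All 13 cells with Gata6 at 10 FPKM or more also had Nanog, the epiblast factor that opposes it, at 10 or more. Nanog was below 10 FPKM only in the E3.5 cell where it stood at 5.24, so this overlap says little about Gata6. It shows only that RNA of factors of the alternative fates was found in the same cells.

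Dab2 stood apart from the other members at E3.5. Its rho was -0.75 with Pdgfra and -0.47 with Hnf4a, whereas with trophectoderm markers it was 0.88 (Gata3), 0.84 (Krt18) and 0.81 (Cdx2). The summed FPKM of the 8 trophectoderm markers ran from 19.97 to 2135 over these cells, with a median of 214, and its rho was 0.89 with Dab2 and -0.85 with Pdgfra. The cell highest in Dab2 (411.3 FPKM) had Gata3 at 132.5, Gata4, Gata6, Sox17 and Pdgfra at 0, and 4662 genes detected. The part of trophectoderm RNA in the Dab2 values was not tested.

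The genes most like each member across E3.5 cells, among 6706 genes of at least 5 FPKM on average and 1 FPKM in at least 20% of cells, were sought outside the set. For Dab2 these were Id2 (rho 0.92), Rhbdl2 (0.91) and Ndrg1 (0.91). For Pdgfra they were Snrpn (0.82), Gm5678 (0.81) and Slc1a3 (0.81), and for Gata6 Nploc4 (0.87), Fnbp1 (0.81) and Tomm70a (0.76). For Gata4 they were Ankrd49 (0.71), Ssh1 (0.69) and Pomt1 (0.68), and Sox17, its closest other member, stood at rank 29. For Sox17 they were Ppp2r1a (0.73), Ppm1g (0.73) and Glrx3 (0.72), for Hnf4a Ttf1 (0.79), Morc1 (0.78) and Khdrbs1 (0.78), and for Sparc Nfu1 (0.75), Rpl27a (0.72) and Rxylt1 (0.72). Each is the top of a long ranking over 23 cells, and Sox7 is left out since it was below 0.1 FPKM in every cell.

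In cells labelled E4.5 epiblast the GATA and SOX factors varied together, and Nanog went the other way. Spearman's rho was 0.70 between Gata4 and Sox17, 0.70 between Gata4 and Sox7, 0.68 between Gata4 and Gata6 and 0.56 between Sox17 and Pdgfra. With Nanog it was -0.49 for Gata4 and -0.43 for Gata6, and with Fgf4 -0.61 for Gata6. The median over the 28 pairs was 0.23, with a range of -0.54 to 0.70, the lowest being that of Hnf4a with Sox7.

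At least 5 members were detected in 10 of 23 E4.5 cells (43.5%, 23.2 to 65.5%), and at 10 FPKM in 5. In 4 cells, picked after their values were seen, Sox17 stood between 73.1 and 303.9 FPKM and Sparc between 246.5 and 444.3, and these cells also had the 4 highest values of Lama1, a laminin chain, all at 32.1 or more. Gata6 in them lay between 12.4 and 74.5 and Gata4 between 7.25 and 42.1, and Nanog between 4.53 and 65.2. At the other end, 3 cells had Gata6, Gata4 and Sox17 each below 0.1 with Nanog at 161.8, 174.6 and 288.7. Those 3 cells, also picked on their values, still had 1 to 3 members, Sparc among them at 57.2 to 126 FPKM.

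Dab2 again followed the trophectoderm genes. All 16 E4.5 cells with Dab2 at 10 FPKM or more had Gata3 at 10 or more, and rho between them was 0.86. The summed trophectoderm markers had a median of 1348 FPKM (range 7.28 to 3462), with a rho of 0.72 to Dab2, -0.64 to Sparc and between -0.23 and 0.10 to the other 6 members. Sparc had a rho of 0.71 with the summed pluripotency markers. Of the cells with Sox17 and Sparc at their highest, 1 had Dab2 at 0.323 and Gata3 at 0.693, and the other 3 had Dab2 at 36.01 to 150.99 and Gata3 at 17.1 to 118.4. Titles of these cells carry leading numbers that the labels do not explain, of which E3.5 had 4 (4 to 7 cells under each) and E4.5 had 7 (2 to 7 cells). Every member but Sox7 was found under all 4 of the E3.5 numbers, and at E4.5 each was found under 4 to 7 of the 7.

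**Figure D2:**
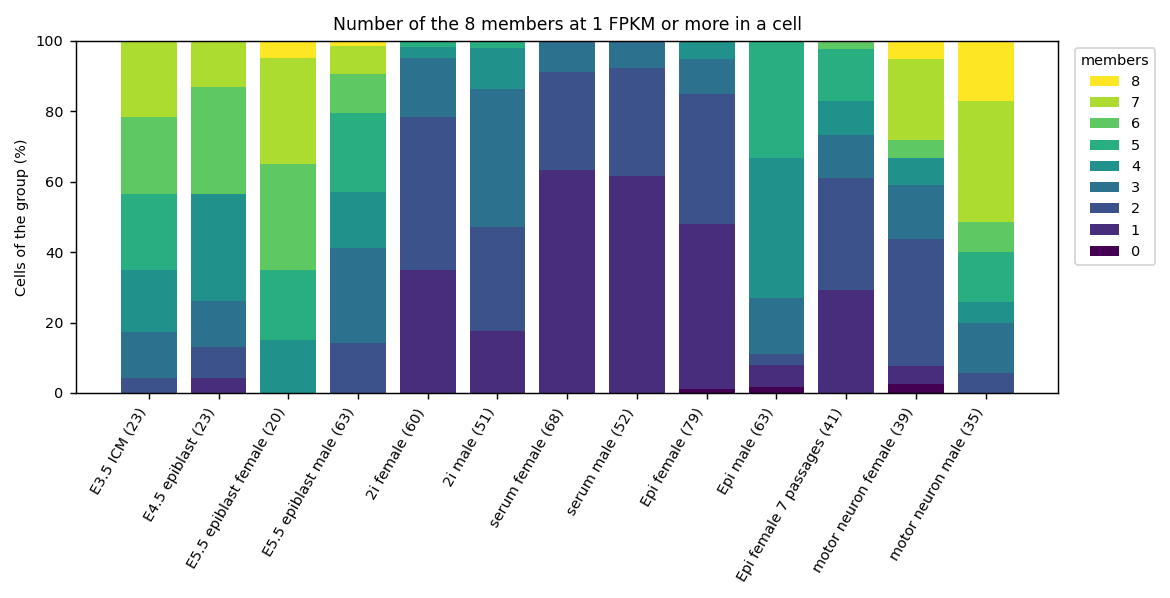
Bars give, for each group with its number of cells, the percentage of cells in which 0 to 8 of the members reached 1 FPKM (colour scale). Cells with 5 or more members make up 65.2% at E3.5, 43.5% at E4.5, 74.3% of the male motor neuron culture and 0 of both serum cultures.

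In cells labelled E5.5 epiblast, at least 5 members were found together in most female but not in most male cells, and Gata6 was low. Dab2 was detected in every cell of both sexes. Gata4 was detected in 19 of 20 female cells (75.1 to 99.9%) and 34 of 63 male ones (40.9 to 66.6%), and Hnf4a in 18 of 20 (68.3 to 98.8%) and 27 of 63 (30.5 to 55.95%). At least 5 members were found together in 17 of the 20 female cells (62.1 to 96.8%) and 27 of the 63 male ones (30.5 to 55.95%). The sexes had 1 sample each, in the same table, and the difference carries no test.

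Visceral endoderm markers were present in these cells. Apoa1, an apolipoprotein, averaged 1585 FPKM in female and 424 in male cells, and Ttr, the thyroid hormone carrier transthyretin, 586 and 176. The sum over the 8 markers had a median of 2437 in female (221 to 10997) and 555 in male cells (21.5 to 2914). Its rho was 0.80 and 0.83 with Dab2, 0.72 and 0.62 with Gata4, 0.54 and 0.61 with Hnf4a, and 0.60 and 0.56 with Sox17, in female and male cells in turn. Pou5f1, a pluripotency factor, was detected in every one of the same cells. The part of visceral endoderm RNA in the members' values at E5.5 was not tested. Decidual markers also differed between the sexes, with all 5 of 5 averaging at least 1 FPKM and a median sum of 55.5 FPKM in female and 12.0 in male cells.

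In ES cells the factors were rare, and the comparison of serum with 2i called no member. Cultures were compared by limma on log2(mean FPKM + 1), and calls needed a log2 change of 1 or more in size beside an adjusted p (Benjamini-Hochberg) below 0.05. All 8 members passed the filter on low values, a mean of 1 FPKM over the 8 cultures, but without the motor neuron cultures 6 would have, since Sox7 and Hnf4a passed through those alone. The comparison called 3 of 15504 genes (0.0193%) and 0 of 8 members. With the line as a block in the fit it called 0 genes, and at an unadjusted p under 0.05 the fit without the block had 1549 genes and 1 member, Sparc.

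Sparc averaged 360.9 FPKM in female and 505.9 in male 2i cells, against 177.2 and 150.1 in serum. Both serum cultures were lower than both 2i cultures, an order that 2 cultures against 2 often show without a change. Its log2 change was -1.38 (SE 0.55, limma adjusted p = 0.462). Dab2 averaged 2.97 and 8.67 FPKM in 2i and 1.65 and 2.58 in serum, with a log2 change of -1.01 (SE 0.86). The serum values of Dab2 were lower too, but its change was about the size of its error. The median log2 change of the members was -0.46, beside 0 for all genes.

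Sox17 was the member on which the lines differed most in 2i. It was detected in 24 of 51 male 2i cells (47.1%, 32.9 to 61.5%), up to 96.2 FPKM, and in 4 of 60 female ones (6.67%, 1.85 to 16.2%). The male cells fell into a lower and a higher run of title numbers, and 45.5% and 48.3% of cells were positive in them. With 1 culture a line this difference has no test. In the male culture Gata4 accompanied Sox17 in 4 cells and Gata6 in 2, so that most Sox17-positive cells lacked the GATA factors. At least 5 members were detected in 1 cell of each 2i culture and in 0 of 68 female and 0 of 52 male serum cells, which allows up to 5.28% and 6.85%. Median rho between members lay between -0.03 and 0.14 in the 4 ES cultures.

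In the Epi cultures the male line carried Gata6, Gata4 and Pdgfra in most cells and the first female culture did not. Gata6 was detected in 46 of 63 male cells (73.02%, 60.3 to 83.4%) and in 1 of 79 female cells (1.27%, 0.0320 to 6.85%). Gata4 was detected in 85.7% (74.6 to 93.3%) and 13.9% (7.16 to 23.5%), and Pdgfra in 73.02% (60.3 to 83.4%) and 2.53% (0.308 to 8.85%). The intervals of the lines do not overlap for any of the 3, but they cover counting error within 1 culture each. In the 7-passage female culture, deposited apart, these genes were detected in 26.8%, 29.3% and 29.3% of cells, between the other cultures.

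Culture means of Gata6 were 0.00750 FPKM in female and 0.0601 in male serum cells and 1.03 and 7.28 in Epi. For Gata4 they were 0.0473 and 0.129 in serum and 1.26 and 21.9 in Epi, and for Sox17 0.231 and 0.0113 in serum and 0.442 and 63.5 in Epi. For each of these genes the male Epi mean was far above the serum means, and the female Epi mean was closer to them. The log2 changes were 1.99 for Gata6 (SE 0.66), 2.72 for Gata4 (SE 0.98), 3.11 for Sox17 (SE 1.78) and 2.12 for Pdgfra (SE 1.09), each with a limma adjusted p of 0.727. Epi against serum called 6 of 15504 genes (0.0387%) and 0 of 8 members, and with the line as a block 2 genes and 0 members. Gata6 and Gata4 were among 1000 genes at an unadjusted p under 0.05. The median change of the members was 1.15, beside 0.12 for all genes.

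The calls turned on the female Epi culture. With the 7-passage culture in its place Gata6 (2.63, limma adjusted p = 0.0174), Gata4 (3.70, p = 0.0136) and Sox17 (5.63, p = 0.0241) were called, 3 of 8 members where 2.94% of all genes were called higher, and without any female Epi culture Gata6 (3.00) and Gata4 (4.40) were, where 1.43% of genes were. The 7-passage culture comes from a separately deposited table. In the female culture 1 cell stood out, with Gata6 at 79.9, Gata4 at 61.2, Pdgfra at 22.5 and Sparc at 235.99 FPKM, and Dab2 and Sox17 at 0. That cell made up nearly the whole Gata6 mean of its culture, in which no other cell reached 1 FPKM.

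Within male Epi cells Gata4, Gata6 and Pdgfra were widespread, and Sox17 was found in fewer cells. Gata4 and Gata6 were detected together in 44 of 63 cells, and 9 of the 11 cells with Sox17 had both. Across cells rho was 0.59 between Gata4 and Pdgfra, 0.40 between Gata6 and Sox17 and -0.02 between Gata4 and Sox17. Sox17 reached 10 FPKM in 10 cells. All 10 had Foxa2, a definitive endoderm and foregut factor, and Cxcr4, a chemokine receptor of mesendoderm, at 10 or more, and 8 had Cer1, a Nodal antagonist. Cxcr4 was also at 10 FPKM in 39 cells without Sox17 at that level, and Foxa2 in 3. Hnf4a and Sox7 were at 0 in all 63 cells, Dab2 reached 10 FPKM in 6, and the visceral markers Ttr and Afp were at or close to 0, at 0 and 0.00837 FPKM on average. At least 5 members were detected in 33.3% of cells (21.95 to 46.3%), 22.6% in the lower and 43.8% in the higher run of title numbers. In the 7-passage culture the cell highest in Sox17 (1101 FPKM) also had Foxa2 at 76.6, Cxcr4 at 136.7, Gata6 at 24.7 and Gata4 at 18.5.

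**Figure D3:**
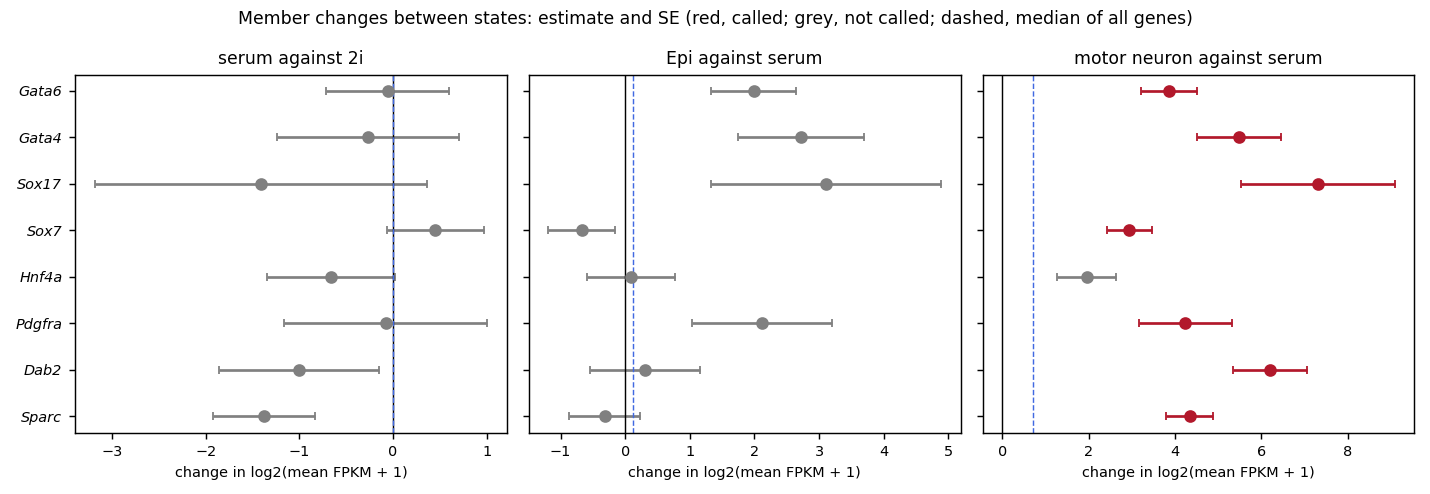
Points give the log2 change in mean FPKM + 1 of each member in the 3 limma comparisons and bars its SE, red where called; the dashed line marks the median of all genes. No member is called in the comparisons of serum with 2i and of Epi with serum, and 7 of 8 are called higher in motor neuron cultures against serum.

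In the motor neuron cultures Gata6, Gata4, Sox17, Pdgfra, Dab2 and Sparc rose against serum ES cells. Sox7 was called as well, 7 of 8 members in all, but it and Hnf4a entered the test only through the motor neuron cultures, where they are high (means of 0.275 and 0.227 FPKM over the other cultures), so the count of 7 supports nothing by itself. The comparison called 4669 of 15504 genes higher (30.1%) and 419 lower (2.7%), with a median change over all genes of 0.71, so a rise as such was common. The members' median change, Sox7 and Hnf4a included, was 4.29. The comparison shares its serum cultures with that of Epi against serum. FPKM sums per cell were also higher in these cultures, with medians of 1332430 female and 1478620 male, against 862527 and 922930 in serum. Rescaling every cell to the same sum gave 2166 genes higher and 971 lower with a median of 0.14, and upper-quartile scaling gave 1563 higher and 2516 lower with a median of -0.26. All 8 members had positive changes under both scalings, which for Hnf4a, at 0 in every serum cell, could not be otherwise. Gata6, Gata4, Sox17, Dab2 and Sparc were called under both (beside 14.2% and 10.1% of all genes higher), and Pdgfra lost its call. Sox7 was called too, with the limit of the filter given above.

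Dab2 averaged 89.5 FPKM in the female and 558 in the male motor neuron culture, against 1.65 and 2.58 in serum. The groups were far apart in both lines, and its log2 change was 6.19 (SE 0.86, limma adjusted p = 0.00446). Sparc averaged 1774 and 6235 FPKM against 177.2 and 150.1, a change of 4.34 (SE 0.55, limma adjusted p = 0.00377). These genes, the endocytic adaptor and the matrix protein of the set, were called under all 19 alternatives in which each was fitted.

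Gata4 averaged 41.7 and 54.3 FPKM against 0.0473 and 0.129, a change of 5.48 (SE 0.98, limma adjusted p = 0.00866). Gata6 averaged 11.2 and 17.5 against 0.00750 and 0.0601, a change of 3.86 (SE 0.66, limma adjusted p = 0.00759). The culture means of both GATA factors were similar in the lines, but the shares of cells were not. Gata4 and Gata6 were detected together in 15 of 39 female and 21 of 35 male cells, a difference that carries no test. Sox17 averaged 89.5 and 345.9 against 0.231 and 0.0113, a change of 7.31 (SE 1.78, limma adjusted p = 0.0225), and Sox7 6.44 and 19.8 against 0.795 and 0.456, a change of 2.94 (SE 0.52, limma adjusted p = 0.00832) in a gene that passed the filter only through these cultures. Both SOX factors were higher in the male than in the female culture. Pdgfra averaged 11.2 and 29.6 against 0.00505 and 0.0416, a change of 4.24 (SE 1.09, limma adjusted p = 0.0264). Its call was lost in 11 of 19 alternatives, more often than that of any other member.

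Hnf4a averaged 0.890 and 6.98 FPKM against 0 in both serum cultures, and its change of 1.96 (SE 0.68) missed the threshold at a limma adjusted p of 0.0662. It was called without the female motor neuron culture (3.00, p = 0.00446) and with a pseudocount of 0.1 (4.73, p = 0.0290). The added 1 FPKM makes the log2 changes of low genes such as Hnf4a and Sox7 smaller than those of the means themselves. Without the female or without the male serum culture only Dab2 and Sparc were called, where 9.99% and 11.5% of all genes were called higher. Without the male motor neuron culture 4 members were (Gata6, Sox7, Dab2 and Sparc), where 22.5% of all genes were. The adjusted p of the calls lost without a serum culture ranged from 0.0508 to 0.117.

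The genes that surround these factors in the pathway moved in different directions. Beside the counts that follow stand the shares of all genes called, 30.1% higher and 2.7% lower. List genes that are high only in the motor neuron cultures also pass the filter through them, and how many do so was not counted. Of 12 inputs of the primitive endoderm decision, 1 rose (Grb2, the adaptor of receptor signalling, by 2.31) and 3 fell (Nanog by 5.04, the FGF target Etv5 by 1.81 and Sall4 by 1.24), with a median of -0.06. Of 10 other extraembryonic endoderm factors 7 were tested, of which 4 rose, Foxa2 by 5.58, Foxq1 by 3.89 and Tcf7l2 by 3.71 among them, and Prdm1 fell by 1.59. Of 14 basement membrane and endocytosis genes 13 were tested and 11 rose, with a median change of 4.59. They included the collagen IV chains Col4a1 (7.11) and Col4a2 (6.64), the laminin chains Lamb1 (4.59) and Lamc1 (3.87) and the collagen chaperone Serpinh1 (4.18). The endocytic receptor parts Lrp2 and Amn had changes of 1.14 and 1.25 and were not called.

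Markers of other cell types moved in the same comparison, where 30.1% of all genes were called higher and 2.7% lower. The same limit of the filter applies to these lists. Of 6 parietal endoderm markers 5 rose, with a median of 5.16, and Lamb1, Plat, Pth1r and Thbd among them also count in the basement membrane list. Of 8 visceral endoderm markers 4 were tested and 2 rose, Ttr by 5.60 and Rbp4 by 3.31. Ttr was at 0.367 FPKM or less in every serum cell, so it is a gene of the kind that the filter admits through the motor neuron cultures. Of 8 neuron markers 7 rose, with a median of 4.74, and of 8 pluripotency markers 4 fell. Of the 7 trophectoderm markers tested, the keratins Krt8 and Krt18 and Tspan8 rose and Tfap2c fell. Cdx2 and Elf5, picked from that list after their values were seen, averaged 0.575 and 0.0676 FPKM in the female and 0.244 and 0.0441 in the male culture. Whether trophectoderm cells were present was not tested. Of the 5 definitive endoderm markers tested, Foxa2 and the member Sox17 rose, of the 4 neural progenitor markers Nkx6-1, and of the 4 decidual markers Cryab. Of the 3 endothelial markers tested Tek rose. Cdh5 and Tie1, also picked after their values were seen, averaged 0.556 and 1.61 FPKM and 0.0167 and 0. Whether endothelial cells were present was not tested. Of the mesenchymal markers none of the 4 tested was called, with Col1a1 at 68.4 FPKM in the female and 1.02 in the male culture.

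**Figure D4:**
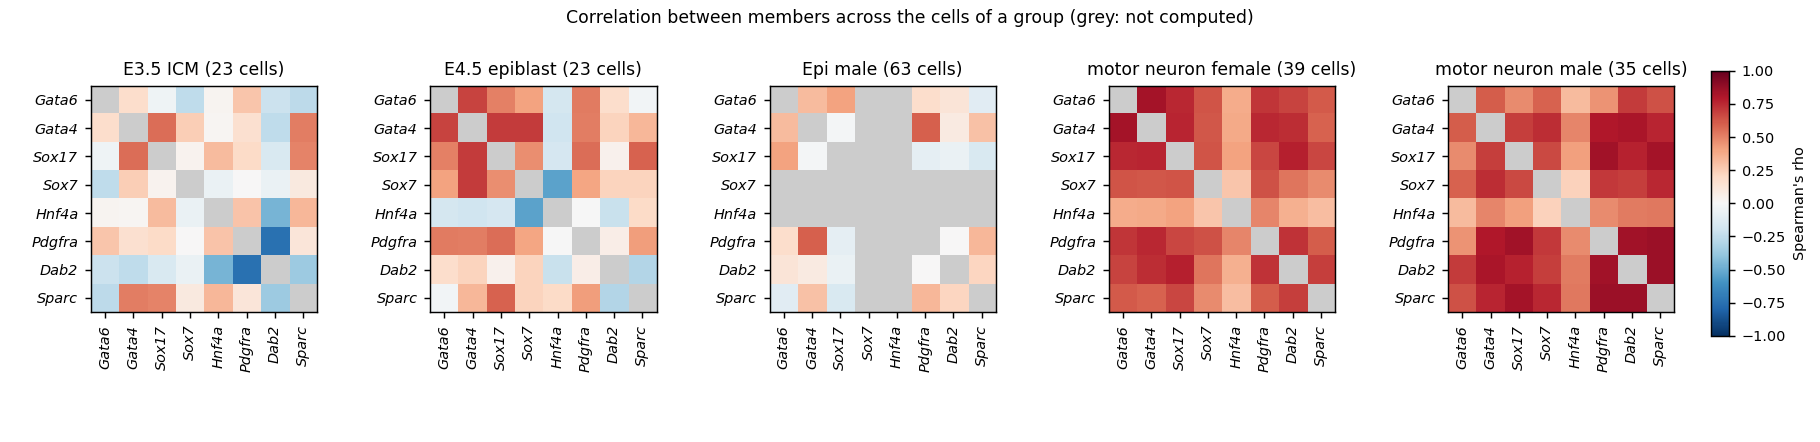
Colours give Spearman's rho between members across the cells of 5 groups, from -1 (blue) to 1 (red), and grey marks the diagonal and genes at 0 in every cell. Nearly all squares are red in the motor neuron cultures, where the 28 rho run from 0.27 to 0.83 (female) and 0.23 to 0.85 (male), while at E3.5 blue and red squares are mixed.

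In both motor neuron cultures the levels of the members rose and fell together across cells. All 28 pairs had a positive rho in each culture, with a median of 0.63 over the 39 female cells (0.27 to 0.83) and 0.69 over the 35 male cells (0.23 to 0.85). The lowest values belonged to Hnf4a, which was detected in 4 female and 9 male cells. The female culture had at least 5 members in 13 of 39 cells (33.3%, 19.1 to 50.2%), and the male culture in 26 of 35 (74.3%, 56.7 to 87.5%). In the lower run of title numbers 7 of 22 female and 15 of 20 male cells did so, and in the higher run 6 of 17 and 11 of 15. All 8 members were detected in 2 of 39 female and 6 of 35 male cells. The only other cells with all 8 were 1 of 20 female and 1 of 63 male E5.5 cells. At 0.1 FPKM all 8 were found in 4 female and 7 male motor neuron culture cells and in 6 female and 5 male E5.5 cells, so E5.5 cells shared this trait.

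Member RNA and neuronal RNA were inversely related across these cells. The summed FPKM of the 8 neuron markers had a rho of -0.43 to -0.70 with the members in the female and -0.45 to -0.83 in the male culture. With the 6 parietal endoderm markers the values were 0.34 to 0.86 and 0.50 to 0.93, and with the 8 visceral markers 0.24 to 0.52 and 0.39 to 0.84. Every cell with Gata4 at 10 FPKM or more had Lama1 at 10 or more (13 of 13 female and 22 of 22 male), and 13 of 13 and 20 of 22 had Foxa2. Tubb3, the neuronal tubulin, reached 10 FPKM in 6 of those 13 and 16 of those 22 cells. In those cells Tubb3 ran from 0 to 93.6 FPKM in the female culture and from 1.011 to 3855 in the male one, so that some male cells held both Gata4 and Tubb3 at high levels. How far RNA of neighbouring cells adds to such values was not tested.

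**Figure D5:**
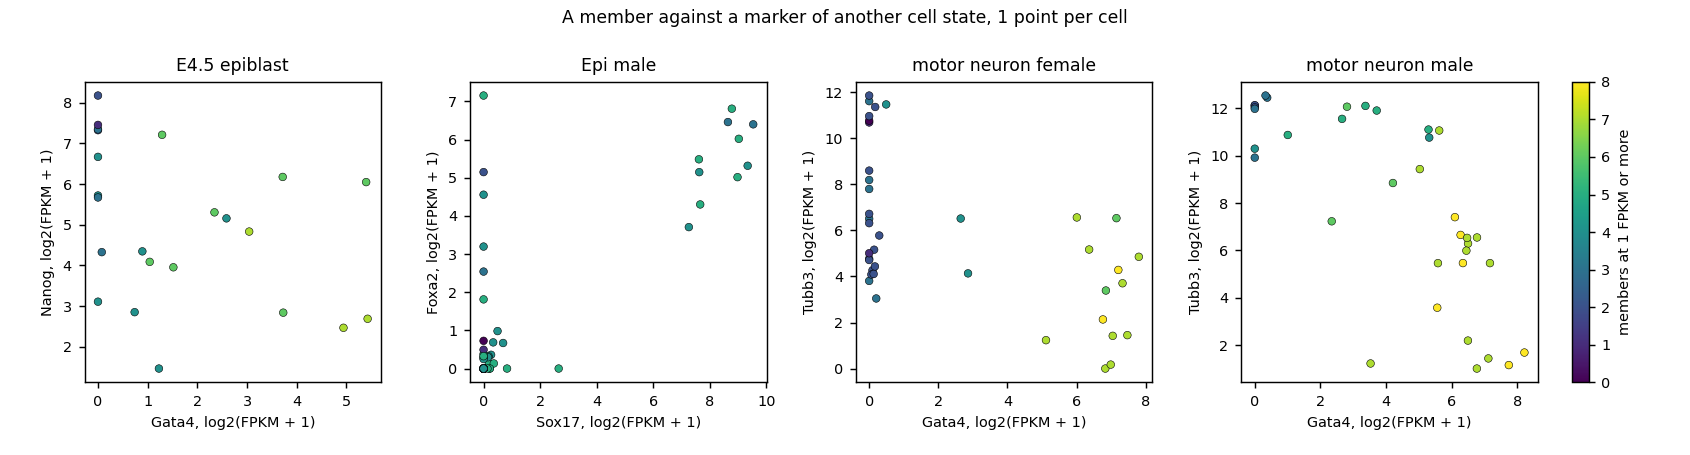
Each point is 1 cell, with a member on the horizontal and a marker of another cell state on the vertical axis, both as log2(FPKM + 1), coloured by how many of the 8 members reached 1 FPKM. Male Epi cells high in Sox17 are all high in Foxa2, and motor neuron culture cells high in Gata4 carry 6 or more members in most cases and less Tubb3 than the highest cells at Gata4 near 0.

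The genes most like the members in the motor neuron cultures, by the mean rho over both cultures among 9228 genes, were of mixed kinds. They included some basement membrane and collagen-processing genes, most clearly for Sparc. For Sparc they were Serpinh1 (0.92), Lamb1 (0.87) and P4hb (0.87), the last a subunit of the enzyme that hydroxylates collagen. For Dab2 they were Hs3st1 (0.84), Cited1 (0.82) and Pdpn (0.82), for Pdgfra Klb (0.80), Lamb1 (0.80) and Slc16a1 (0.80), and for Sox17 Cmtm7 (0.79), Col4a2 (0.79) and Srgn (0.78). For Gata4 they were Ugt2b34 (0.79), Epas1 (0.79) and Hkdc1 (0.79), and Gata6 had Hs3st1 (0.69) and Fxyd3 (0.69) among its closest genes. For Sox7 they were Frmpd1 (0.75), Fxyd3 (0.75) and Adi1 (0.74), and for Hnf4a Nostrin (0.57), Retreg1 (0.56) and Tmed3 (0.56). The closest other member stood at rank 2 for Gata6 (Gata4), 4 for Gata4, 5 for Sox17, 6 for Pdgfra and 33 for Sparc (Dab2 in each), 13 for Sox7 (Gata4), 16 for Dab2 and 27 for Hnf4a (Pdgfra in both).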

How the data were processed

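The values are FPKM per gene and cell, which the authors made and deposited as 4 tables for 617 cells. The submitters' processing notes name STAR 2.4.1, Cufflinks, Cuffnorm 2.2.1 and the assembly mm10. The gene annotation, strandedness and cell filters are not given in the sources used here, so RNA of a gene and an antisense partner cannot be told apart. The deposited FPKM of a cell do not sum to a fixed total. In 356 values a damaged exponent was repaired, none above 9.7552e-05 FPKM. Gene symbols came from GENCODE on GRCm38, matched to 42548 of 43628 identifiers.

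A gene counted as detected at 1 FPKM. The unit of comparison was the culture, 1 per line and state. Culture values, log2(mean FPKM + 1), of 8 cultures, over genes averaging 1 FPKM or more, were fitted with limma 3.58.1 (R 4.3.3, trended variance) for 3 contrasts, each with Benjamini-Hochberg adjustment over all genes tested. The labels do not say that samples came from separate cultures beyond the line. Same-sex cultures share a line, and across 14731 autosomal genes their deviations from the state means correlated at 0.0468 to 0.153, so a fit with the line as a block was run beside the main one. Embryonic stages have 1 sample each and no test. The tables were deposited separately, and levels across them are set side by side only. Python 3.11.15 with pandas 2.3.3, numpy 2.4.6, scipy 1.17.1 and matplotlib 3.10.9 did the rest. The limma step was tested on simulated data.

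The members and gene lists were chosen with earlier results of these data known. List genes are named with values where they are among the 5 of highest mean FPKM in the group, or among 5 or fewer called. Fgf4, Lama1, Lrp2, Amn, Afp, Cdx2, Elf5, Cdh5 and Tie1, and Ttr in male Epi cells, were named after their values were seen. For likeness, the 3 genes of highest Spearman rho are named. Values of 2 genes that these rules would name are not reported here. Alternatives were another pseudocount, filter, scaling, averaging, block, run of title numbers, detection level, the 7-passage culture, and leaving out each culture.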

Additional observations from a re-analysis of the deposited data

How the results depend on the processing

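The rise of Dab2 and Sparc in motor neuron cultures kept its direction and its call in every alternative. All other members kept a positive change there, which for Hnf4a, at 0 in every serum cell, could not be otherwise. Leaving out 1 culture at a time gave 2 to 7 called members there (2 without either serum culture, 4 without the male motor neuron culture), 1561 to 4848 genes higher and 89 to 715 lower. With the mean of log2 values over cells 2570 genes were higher and 855 lower, with cells rescaled to the same sum 2166 and 971, with upper-quartile scaling 1563 and 2516, and without the low-value filter 213 were lower. With line as a replicate block, pairing the cultures, 4896 were higher and no member's call changed. In serum against 2i, where 3 genes were called, the count was 0 with a pseudocount of 0.1 and with the block, 27 without the filter, 224 with the mean of log2 values, 35 with upper-quartile scaling, 409 with only the 4 cultures compared, 11 in the higher run of title numbers and 0 to 51 leaving out 1 culture. The Gata6 change of -0.06 became 0.011 in the higher run and ran from -0.16 to 0.047 leaving out 1 culture, and that of Pdgfra, -0.08, ran from -0.17 to 0.014, all within the SE. In Epi against serum, where 6 genes were called, the count was 2 with the block, 1 with only the 4 cultures, 1 in the lower run, 848 with the 7-passage culture and 0 to 366 leaving out 1 culture. Members called there were 3 with the 7-passage culture and 0 to 2 leaving out 1 culture, the 2 without the female Epi culture. Sparc turned to 0.57 with the 7-passage culture and 0.11 in the higher run. The cause of these shifts was not tested. Cells with 5 or more members at 10 FPKM were 2 at E3.5, 5 at E4.5, 2 in male Epi and 19 in the male motor neuron culture, and at 0.1 FPKM 31 in male Epi and 20 in the female motor neuron culture. Read totals per cell are not in the tables, so a member listed at 0 was not detected at a depth known only from the FPKM steps. With an arm of 1 culture the lone culture is assumed to vary like the others.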
